A study of Bos taurus with 6 samples.

Results

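The Wnt ligands, their Frizzled receptors and the secreted proteins that block them were followed in rumen epithelial primary cells (REPC), which were cells grown from the rumen lining of a Holstein calf, with and without butyrate. The genes were taken by name: every WNT, FZD, SFRP and DKK gene, the co-receptors LRP5 and LRP6, the antagonist WIF1, and LEF1, TCF7 and AXIN2, which act below the receptors. This gave 41 of the 32183 gene rows of each expression table: 18 ligands, 10 receptors, 4 SFRP genes, 4 DKK genes, WIF1, LRP6, LEF1, TCF7 and AXIN2. WNT7B and LRP5 were not analysed here.

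The 6 RNA-seq cultures all came from 1 bull calf of the Holstein breed, aged 2 weeks and fed only milk replacer. In 3 cultures the medium held 5 mM butyrate for 24 h, and the other 3 were controls, so the comparison asks which genes respond to butyrate in these cells. Because the labels do not say whether the cultures of a group were grown separately, the p-values measure the spread between these samples, which may be technical, and say nothing of other calves. Butyrate is a short-chain fatty acid made by fermentation in the rumen, which inhibits histone deacetylases.

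Wnt proteins are lipid-modified signals that bind Frizzled receptors at the cell surface. Together with LRP5 or LRP6 they spare beta-catenin from degradation, and beta-catenin then joins the TCF and LEF factors at target genes. Other ligands, of which WNT5A is the best known, act mostly without beta-catenin and steer cell polarity and movement. The SFRP proteins and WIF1 capture the ligands, whereas most DKK proteins block the LRP co-receptors. In stratified epithelia the pathway is known for its part in renewal of the basal layer.

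Levels are given as FPKM, the fragments per kilobase of transcript scaled to all mapped fragments of the library, so genes can be compared per length. Implied depth, taken from the width of the deposited confidence intervals, was close between the groups, with 5756609 to 6186809 fragments per culture. The FPKM of all genes summed to 677547 to 681403 in the controls and to 618616 to 628246 after butyrate, and 16049 to 16191 and 17304 to 17508 genes were above 0. Markers of epithelium, fibroblasts and smooth muscle were each found at high and at low levels. In the controls the keratin KRT8 stood at 1379.8 ± 61.4 FPKM (SD, n = 3), the collagen COL1A1 at 1149 ± 34.9 and the smooth muscle actin ACTA2 at 2752 ± 99.7. In the same cultures EPCAM of epithelium was at 0.540 FPKM, FAP of fibroblasts at 0.0150 and MYH11 of smooth muscle at 0.662, and GRHL2 and TCF21 were listed at 0. PTPRC of leukocytes and CDH5 of endothelium were listed at 0 in all 6 cultures, whereas CD14 was at 5.57 FPKM and PECAM1 at 1.54 in the controls. In such bulk RNA, fewer cells of a type and less RNA per cell cannot be told apart.

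Butyrate cultures had more DKK3 and SFRP5 and less DKK2, WNT5A and WNT5B than controls, and more of several ligands and receptors that were low in the controls. The 32 genes whose FPKM averaged 0.1 or more over the 6 cultures were tested by limma on the log2(FPKM + 0.1) scale. At a Benjamini-Hochberg adjusted p under 0.05, 19 of them were higher and 5 lower, and 8 were not called. Among all 15813 genes tested, 32.5% were higher and 25.9% lower. For the Wnt genes this was 59.4% and 15.6%. The median log2 fold change was 0.70 for the 32 genes and 0.10 for all genes, and the medians regardless of sign were 0.98 and 0.57.

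These counts carry a limit that lies in the filter. In 6 of the 32 genes the control mean was below 0.1, so they could be tested only because of their butyrate values. Of these 6, WNT1, WNT4, WNT6, SFRP1 and SFRP4 were the 5 among the higher genes, and WNT3 was not called. Their adjusted p-values therefore add little to the filter. Genes with such a control mean made up 7.58% of all genes tested. In the same way WNT2, among the lower genes, had a butyrate mean of 0.0838 and could be tested only because of its control values. At a mean FPKM of at least 1, 12 of 20 genes were higher and 4 lower, against 33.5% and 32.7% of all genes. This filter has the same limit, as FZD2, SFRP5 and AXIN2, all among the 12, passed it only through their butyrate values. Their control means were 0.643, 0.325 and 0.601 FPKM. After quantile normalization 12 were higher and 6 lower (66.7% higher among the calls, against 79.2%), with 27.1% and 29.6% of all genes. The median of all genes lay at 0.23 after rescaling to TPM and at -0.05 after quantile normalization, so a log2 change below about this size cannot be told from the scaling. Larger changes are not thereby safe, as single low genes moved by more than these medians. After quantile normalization the log2 fold change of FZD5 went from 1.21 to 0.41 and that of FZD8 from 0.45 to -0.19.

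**Figure D1:**
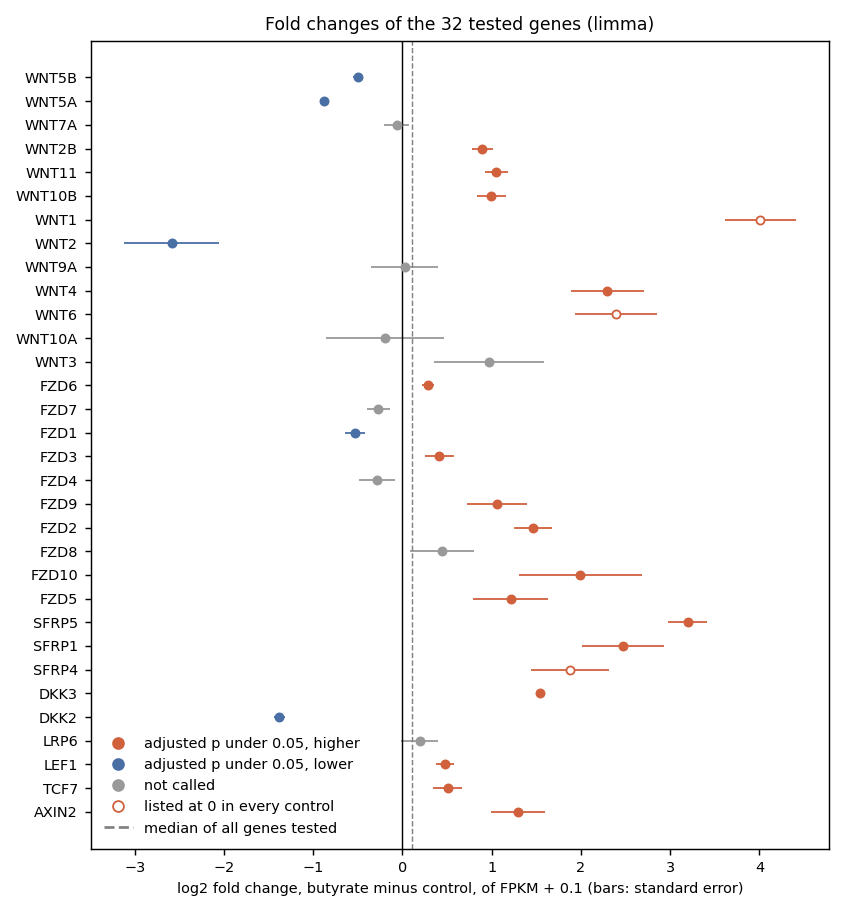
Log2 fold change of FPKM + 0.1 (horizontal axis, butyrate minus control, with its standard error) for the 32 tested Wnt genes, coloured by the limma call, with open symbols for genes listed at 0 in every control. WNT1 and SFRP5 lie furthest to the right and WNT2 and DKK2 furthest to the left of the dashed line, the median of all genes at 0.10. DKK3 lies to the right at 1.54, behind several genes with low controls. This order depends on the pseudocount. With 1 in place of 0.1, SFRP5 (1.86) and DKK3 (1.53) lay beyond WNT1, and DKK2 (-1.36) beyond WNT2 (-0.88).

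Groups did not overlap for 23 of the 32 genes, with 18 above and 5 below the controls. Over all genes tested, 65.0% did not overlap, 36.1% above and 28.9% below. In either direction together, the share of the 32 genes was near that of all genes. Of the 18, WNT1, WNT4, WNT6, SFRP1 and SFRP4 could be tested only through their butyrate values. Of the 5, WNT2 could be tested only through its control values. At the study's thresholds, which ask for a log2 fold change beyond 2 and a p under 0.05 after Bonferroni correction, SFRP5 alone was up (3.125% of the 32 genes, against 2.46% of all genes) and none was down (against 1.51%). WNT2 had an unadjusted limma p under 0.05 with a log2 fold change below -2, but it did not pass the Bonferroni correction. At any fold, 4 genes passed the Bonferroni correction in limma, namely DKK3, DKK2, WNT5A and SFRP5. Of these, DKK3 passed it in every alternative run.

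Among the ligands, WNT5B and WNT5A dominated in both groups, and both fell after butyrate. WNT5B, on chromosome 5 (108637827 to 108650089, as the tables place it on UMD3.1), stood at 127.7, 129.5 and 130.7 FPKM in the controls and at 94.7, 83.9 and 95.9 with butyrate. Its highest butyrate culture was far below its lowest control. This gave a log2 fold change of -0.50 (standard error, SE, 0.06, limma adjusted p = 0.000108).

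WNT5A, on chromosome 22 (46096227 to 46116988), fell further. Control cultures had 88.1, 87.3 and 85.9 FPKM and butyrate cultures 49.1, 47.5 and 45.9, so the spread within each group was small beside the gap. This was a log2 fold change of -0.87 (SE 0.05, limma adjusted p = 1.49e-06). The Bonferroni-adjusted p of 0.00104 rose to 0.347 in a fit without the trend, to 0.055 without control replicate 1 and to 0.0596 without butyrate replicate 2. The row of WNT5A overlapped that of LOC104975559, which had 2.38 and 4.63 FPKM in controls and butyrate.

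WNT7A, the third ligand by level, did not pass the test. Its values were 31.2, 24.4 and 30.4 FPKM in the controls and 22.6, 32.1 and 27.9 with butyrate, with overlapping groups and a log2 fold change of -0.07 (SE 0.14, limma adjusted p = 0.709).

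By contrast, WNT2B, WNT11 and WNT10B, at intermediate levels, all rose, by 0.89 to 1.05 on the log2 scale. WNT2B, a beta-catenin ligand, lies on chromosome 3 (30942957 to 30957520). It had 9.36, 11.2 and 11.04 FPKM in the controls and 19.1, 17.6 and 22.5 with butyrate (log2 fold change 0.89, SE 0.12, limma adjusted p = 0.000199). Its row overlapped that of ST7L, which went from 4.22 to 8.66 FPKM, and the counting is not stated to use strand, so the reads of these genes may not be fully separated.

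WNT11, a ligand known for cell polarity and convergent movement, lies on chromosome 15 (56384698 to 56408026). Its levels were 7.79, 6.68 and 8.78 FPKM in the controls and 16.1, 18.0 and 14.3 with butyrate. The log2 fold change was 1.05 (SE 0.13, limma adjusted p = 0.000138). Thus WNT5A and WNT11, which are often grouped as ligands that work without beta-catenin, moved in opposite directions.

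WNT10B, which holds back fat cell formation, lies on chromosome 5 (31009691 to 31015172). It was at 2.92, 4.14 and 3.72 FPKM in the controls and at 6.30, 7.26 and 8.15 with butyrate, and no control reached the lowest butyrate culture. Its log2 fold change was 1.00 (SE 0.16, limma adjusted p = 0.000846).

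**Figure D2:**
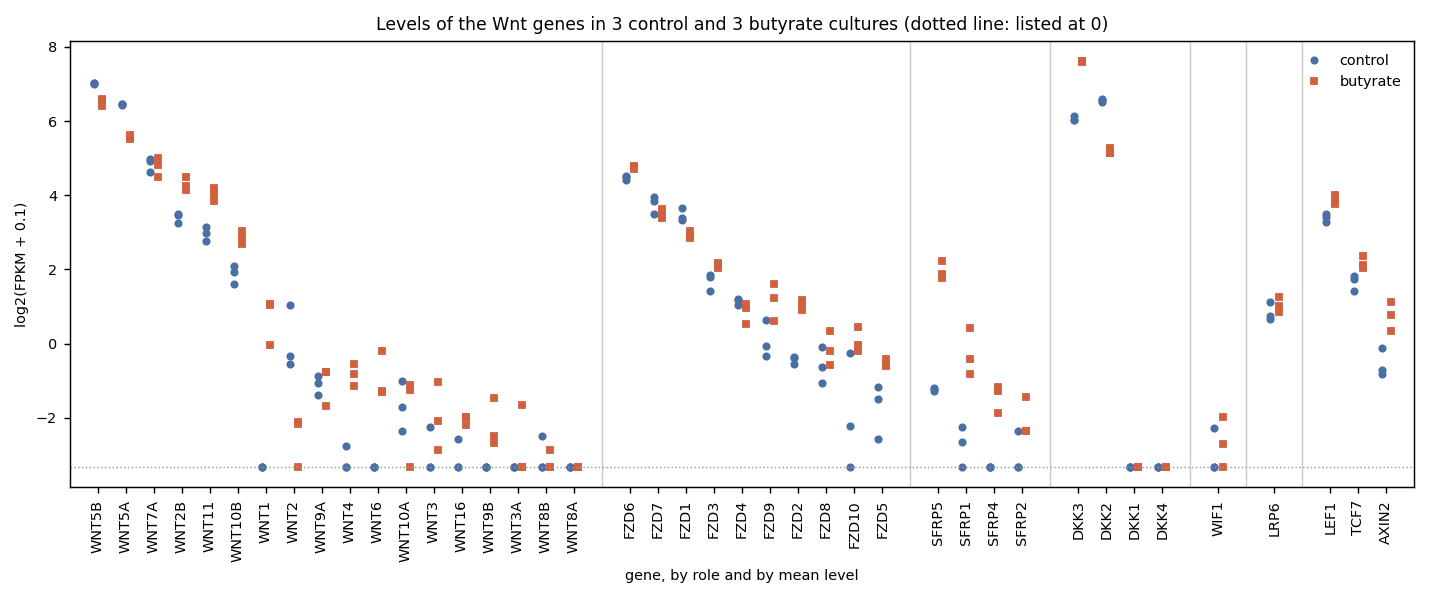
Level of each of the 41 Wnt genes on the log2(FPKM + 0.1) scale in 3 control (circles) and 3 butyrate (squares) cultures, ordered by role and mean level, with the dotted line where a gene is listed at 0. WNT5B and WNT5A lead the ligands, FZD6, FZD7 and FZD1 the receptors, and DKK3 and DKK2 the antagonists, and several low genes leave the dotted line only with butyrate.

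The remaining ligands were low. WNT1, the founding member of the family, was listed at 0 in every control and had 1.98, 1.96 and 0.871 FPKM with butyrate (limma adjusted p = 4.06e-05). No fold is given, as the tables hold no counts, and its butyrate values rest on about 18.0 implied fragments over the 3 cultures. WNT6 was likewise listed at 0 in the controls and had 0.304, 0.775 and 0.309 FPKM with butyrate, on only about 5 implied fragments (limma adjusted p = 0.00203). Both ligands could be tested only through their butyrate values.

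WNT4, a ligand of kidney and reproductive tract development, was listed at 0 in controls 1 and 2 and could be tested only through its butyrate values. It had 0.0484 FPKM in control 3 and 0.355, 0.468 and 0.581 with butyrate (log2 fold change 2.30, SE 0.41, limma adjusted p = 0.00131). WNT2 was the only low ligand called lower, and it could be tested only through its control values. Its 0.690, 1.94 and 0.583 FPKM in the controls stood above 0, 0.121 and 0.130 with butyrate (log2 fold change -2.59, SE 0.53, limma adjusted p = 0.00297). The size of both changes depends on the pseudocount: with 1 in place of 0.1, WNT4 changed by 0.53 and WNT2 by -0.88.

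WNT9A, WNT10A and WNT3 were tested but not called, with limma adjusted p of 0.959, 0.821 and 0.206 and no culture above 0.489 FPKM. WNT16, WNT9B, WNT3A and WNT8B were too low to be tested, and WNT8A was listed at 0 in all 6 cultures. In WNT16, the untested ligand with the highest mean, the butyrate cultures had 0.154, 0.117 and 0.154 FPKM, and the controls 0, 0 and 0.0691.

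The receptor mix was led by FZD6, FZD7 and FZD1, which moved differently. FZD6, a receptor known for hair and cell orientation, lies on chromosome 14 (63357674 to 63394184). It had 22.2, 22.8 and 21.2 FPKM in the controls and 27.1, 26.2 and 27.6 with butyrate, a small rise without overlap (log2 fold change 0.29, SE 0.06, limma adjusted p = 0.00461).

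FZD7, on chromosome 2 (90987007 to 90989214), did not pass the test. Its controls had 14.3, 15.3 and 11.1 FPKM and its butyrate cultures 12.3, 10.7 and 10.4, so control 3 lay within the butyrate range. The log2 fold change was -0.27 (SE 0.13, limma adjusted p = 0.115), and without control replicate 3 it was -0.41 (adjusted p = 0.0191).

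FZD1, on chromosome 4 (8490675 to 8494830), fell. Controls had 10.05, 10.4 and 12.4 FPKM, and all butyrate cultures were lower at 7.16, 7.42 and 8.08 (log2 fold change -0.53, SE 0.11, limma adjusted p = 0.00350). It was the only receptor gene of the 10 that was called lower, although FZD4 joined it after quantile normalization (log2 fold change -0.65, adjusted p = 0.0275).

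FZD2, a receptor of WNT5A, lies on chromosome 19 (44954639 to 44958097). It had 0.680, 0.665 and 0.584 FPKM in the controls and 2.17, 1.77 and 1.91 with butyrate. With a log2 fold change of 1.46 (SE 0.21, limma adjusted p = 0.000380), it had the lowest adjusted p of the receptors, and its call held in every alternative run, with a change of 0.84 at a pseudocount of 1.

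Of the other receptors, FZD3, FZD9, FZD10 and FZD5 passed the test, but none of these 4 calls held in every alternative. FZD3 had 3.53, 2.59 and 3.38 FPKM in the controls and 3.97, 4.40 and 4.30 with butyrate (log2 fold change 0.41, SE 0.16, limma adjusted p = 0.0498). Leaving out control 2 or 3 or any butyrate culture raised its adjusted p to between 0.0667 and 0.134, and without control 2 the change was 0.28. After quantile normalization it was 0.24 (adjusted p = 0.201).

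FZD9 had 0.865, 0.698 and 1.46 FPKM in the controls and 1.42, 2.93 and 2.25 with butyrate, and here the highest control exceeded the lowest butyrate culture. Its log2 fold change of 1.06 (SE 0.34, limma adjusted p = 0.0252) lost the call without control 1 or 2 or butyrate 2 or 3, at adjusted p of 0.087 to 0.118, and after quantile normalization (0.64, adjusted p = 0.140).

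FZD10 had 0.115, 0.738 and 0 FPKM in the controls and 0.867, 1.25 and 0.769 with butyrate (log2 fold change 1.99, SE 0.69, limma adjusted p = 0.0355). The call was lost without control 1 or 3 or any butyrate culture (adjusted p 0.0892 to 0.142), and without control 3 the change was 1.30. FZD5 had 0.345, 0.254 and 0.0669 FPKM in the controls and 0.567, 0.645 and 0.561 with butyrate (log2 fold change 1.21, SE 0.42, limma adjusted p = 0.0348). Without control 2 or 3 or any butyrate culture its adjusted p was 0.0526 to 0.0942, and without control 3 the change was 0.80. After quantile normalization the change of FZD5 was 0.41 (adjusted p = 0.402) and that of FZD10 1.32 (adjusted p = 0.128), and with a pseudocount of 1 they were 0.39 and 0.65. Both receptors were thus below 1.3 FPKM in every culture.

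FZD4, which also binds Norrin, had 2.20, 1.95 and 2.17 FPKM in the controls and 1.35, 1.84 and 1.9998 with butyrate, with overlapping groups (log2 fold change -0.29, SE 0.20, limma adjusted p = 0.253). FZD8 varied as much within a group as between them, with 0.834, 0.380 and 0.546 FPKM in the controls and 0.764, 1.16 and 0.573 with butyrate (log2 fold change 0.45, SE 0.36, limma adjusted p = 0.312). LRP6, the co-receptor of beta-catenin signalling, had 2.07, 1.59 and 1.498 FPKM in the controls and 1.92, 2.29 and 1.72 with butyrate. Its groups overlapped, and the log2 fold change of 0.19 (SE 0.21, limma adjusted p = 0.443) was within the spread, as was that of FZD8. After quantile normalization the sign of both turned.

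Of the 41 genes, DKK3 differed most in level between the groups. This gene, on chromosome 15 (41241521 to 41291992), is the divergent member of the DKK family, which does not act on LRP6 as the others do. It rose from 70.4, 65.7 and 65.3 FPKM in the controls to 196.2, 193.9 and 196.1 with butyrate. These cultures differed among themselves by little beside a ratio of the means of 2.91. The log2 fold change was 1.54 (SE 0.05, limma adjusted p = 7.51e-08, Bonferroni-adjusted p = 5.55e-06).

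DKK2, on chromosome 6 (19381412 to 19511163), binds LRP5 and LRP6 and can block or, in some settings, activate them. It moved the other way, from 92.0, 94.5 and 96.6 FPKM in the controls to 35.1, 35.2 and 38.4 with butyrate. The log2 fold change was -1.38 (SE 0.06, limma adjusted p = 2.71e-07, Bonferroni-adjusted p = 7.20e-05), the lowest of the members above 1 FPKM in both groups. In a fit without the trend its Bonferroni-adjusted p was 0.0547. DKK3 over DKK2 was therefore 0.765, 0.696 and 0.676 in the controls and 5.59, 5.50 and 5.10 with butyrate. DKK1 and DKK4 were listed at 0 in all 6 cultures.

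SFRP5, on chromosome 26 (18782551 to 18787376), was the only member that passed the study's thresholds. Controls had 0.312, 0.338 and 0.324 FPKM, on about 3 implied fragments per culture, and butyrate cultures 4.61, 3.33 and 3.54 on about 117.7 in all. The ratio of the means was 11.8 and the log2 fold change 3.20 (SE 0.22, limma adjusted p = 4.35e-06, Bonferroni-adjusted p = 0.00483). The Bonferroni-adjusted p was 0.0821 to 0.258 when any single culture was left out, 0.0558 without a filter on low values and 0.104 with the replicate number as a block, and with a pseudocount of 1 the change was 1.86. The Benjamini-Hochberg call held in all of these.

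The other SFRP genes were below 1.3 FPKM in every culture. SFRP1 had 0.109, 0.0581 and 0 FPKM in the controls and 0.471, 1.23 and 0.646 with butyrate (log2 fold change 2.47, SE 0.46, limma adjusted p = 0.00174). With a pseudocount of 1 this change was 0.73 and with 0.01 it was 4.08, and the controls rest on about 5.99 implied fragments in all. SFRP4 was listed at 0 in every control and had 0.343, 0.313 and 0.173 FPKM with butyrate (limma adjusted p = 0.00559, and 0.094 after quantile normalization). SFRP1 and SFRP4 could be tested only through their butyrate values. SFRP2 and WIF1 were too low to be tested, with no culture above 0.268 FPKM.

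**Figure D3:**
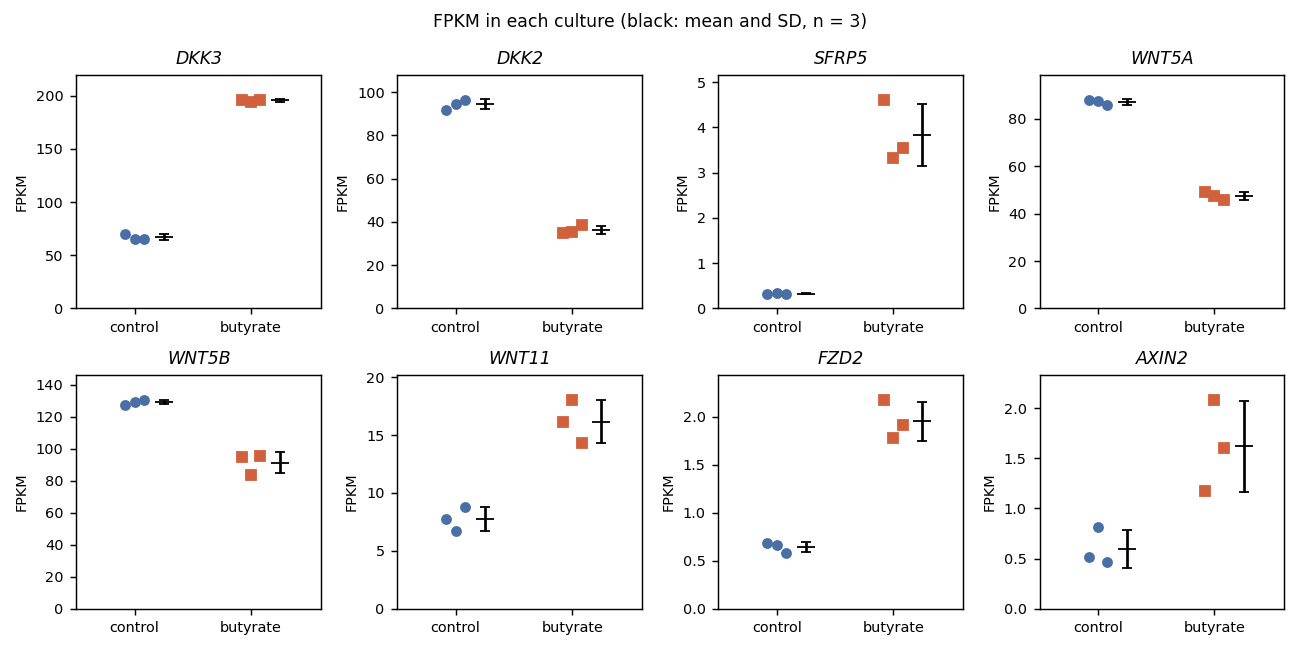
FPKM of 8 Wnt genes in each control (circles) and butyrate (squares) culture, with the mean and SD of the 3 cultures in black and axes that start at 0. DKK3, SFRP5, WNT11, FZD2 and AXIN2 lie above the controls in all 3 butyrate cultures, and DKK2, WNT5A and WNT5B below them.

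Below the receptors, LEF1, TCF7 and AXIN2 all were higher after butyrate. LEF1, on chromosome 6 (18334143 to 18451283), is a DNA-binding partner of beta-catenin. It had 9.58, 10.5 and 11.1 FPKM in the controls and 14.0, 16.1 and 13.5 with butyrate, without overlap (log2 fold change 0.48, SE 0.10, limma adjusted p = 0.00332). TCF7, a factor of the same family, had 3.22, 2.58 and 3.45 FPKM in the controls and 4.01, 4.26 and 4.99 with butyrate (log2 fold change 0.51, SE 0.16, limma adjusted p = 0.0253). This call was lost without control 2 or butyrate 2 or 3 (adjusted p 0.0626 to 0.0956) and after quantile normalization (adjusted p = 0.101).

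AXIN2, on chromosome 19 (62834849 to 62863327), is a scaffold of beta-catenin degradation that is itself induced by the pathway. It stood at 0.515, 0.818 and 0.469 FPKM in the controls and at 1.17, 2.08 and 1.601 with butyrate, each above the highest control. The log2 fold change was 1.29 (SE 0.30, limma adjusted p = 0.00570). After quantile normalization it was 0.77 with an adjusted p of 0.0534, and with a pseudocount of 1 it was 0.70.

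Summed over each role, the ligands had 268.7 ± 2.96 FPKM (SD, n = 3) in the controls and 213.4 ± 3.97 with butyrate. The receptors had 54.6 ± 1.49 and 58.2 ± 0.393, the SFRP genes 0.413 ± 0.0846 and 5.04 ± 0.538, and the DKK genes 161.5 ± 1.14 and 231.7 ± 2.74. These sums are descriptions without a test. DKK2 and DKK3 together over all ligands came to 0.601 ± 0.00500 in the controls and 1.09 ± 0.00914 with butyrate. Their sum rose through DKK3 (67.1 to 195.4 FPKM), whereas DKK2, which binds LRP5 and LRP6, fell from 94.3 to 36.3. The ratio is therefore no measure of how strongly ligands are opposed.

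Ligand composition moved away from the leading pair. WNT5A and WNT5B made up 80.5%, 81.5% and 79.6% of the ligand sum in the controls and 68.0%, 62.3% and 65.0% with butyrate. WNT2B took 3.49% to 4.21% of the ligand sum in the controls and 8.32% to 10.3% with butyrate, and WNT11 2.51% to 3.23% and 6.57% to 8.56%. Within the leading pair, WNT5B over WNT5A was 1.48 ± 0.0361 in the controls and 1.93 ± 0.162 with butyrate. Among receptors, FZD6, FZD7 and FZD1 together held 85.3% ± 1.44 of the sum in the controls and 78.5% ± 2.40 with butyrate, and FZD6 over FZD1 went from 2.04 ± 0.283 to 3.58 ± 0.190.

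**Figure D4:**
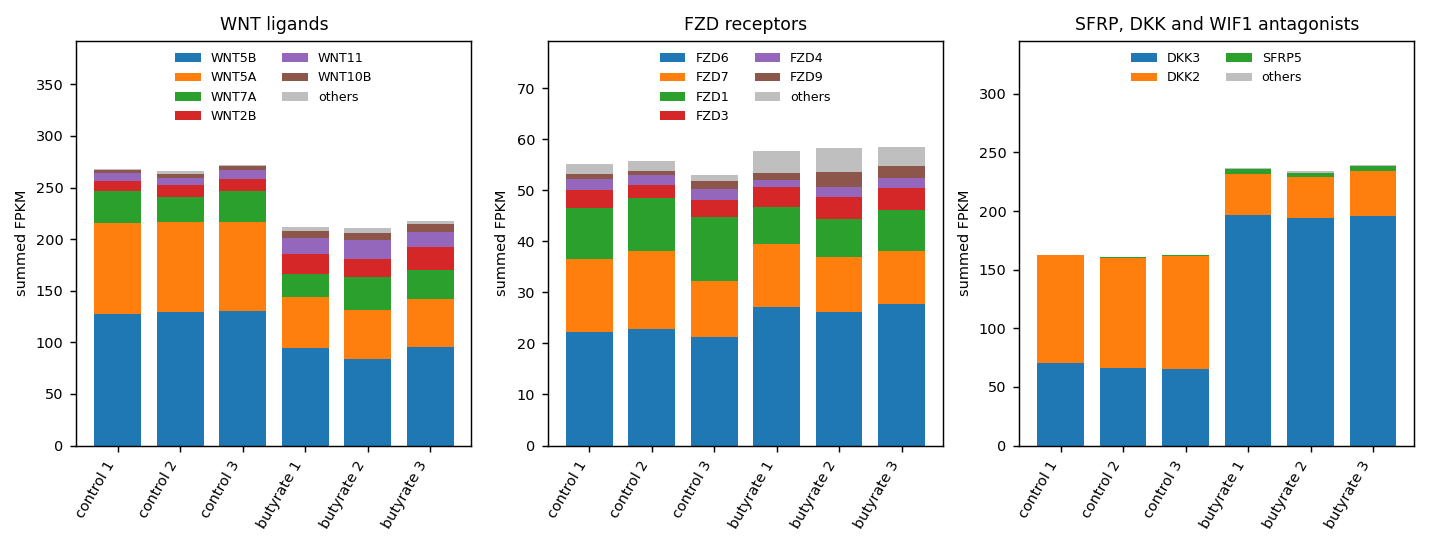
Summed FPKM of the ligands, receptors and antagonists in each culture, stacked by gene, with the less abundant genes together in grey. The bars of WNT5A and DKK2 are shorter and that of DKK3 is longer in all 3 butyrate cultures, whereas the height of the receptor bars stays between 52.9 and 58.5 FPKM.

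Other genes of the pathway were taken from lists of their roles. Their counts stand against the 32.5% higher and 25.9% lower among all genes tested and a median log2 fold change of 0.10. The fold changes of called genes in these lists kept their sign after rescaling to TPM and after quantile normalization. For secretion, WLS, the carrier that brings ligands to the cell surface, rose from 31.8 ± 0.514 to 55.4 ± 1.93 FPKM (log2 fold change 0.80, limma adjusted p = 4.46e-06). PORCN, which adds the lipid to the ligands, was not called (0.33, adjusted p = 0.273).

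Among further receptors, co-receptors and R-spondins, 13 of 19 genes were tested, of which 9 (69.2%) were higher and none lower, with a median log2 fold change of 0.34. After quantile normalization 7 were higher and 1 lower. LGR6, a receptor of R-spondins and an epithelial stem cell gene, rose from 0.670, 0.514 and 0.0988 FPKM to 10.9, 10.2 and 5.69 (log2 fold change 4.26, SE 0.49, limma adjusted p = 9.97e-05). Its controls rest on only about 9.93 implied fragments in all. KREMEN2, a receptor that works with DKK proteins, rose from 0.362 ± 0.195 to 3.02 ± 1.08 FPKM (2.78, limma adjusted p = 0.000207), with about 8.99 implied fragments in the controls. ROR1, a WNT5A receptor, also rose (1.28, adjusted p = 0.00115), and GPC3 was listed at 0 in every control and had 0.232 to 0.312 FPKM with butyrate, through which alone it could be tested. None of the 4 R-spondin genes was high enough to be tested.

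Of 7 other antagonists 4 could be tested and were called higher, and 2 of them also after quantile normalization. SOSTDC1, which binds BMPs and LRP co-receptors, rose from 12.0 ± 0.293 to 56.2 ± 7.17 FPKM (log2 fold change 2.21, SE 0.09, limma adjusted p = 3.39e-07) and passed the study's thresholds. DKKL1, a relative of DKK3, rose from 18.7 ± 0.616 to 60.3 ± 4.61 FPKM (1.68, adjusted p = 3.31e-07). NOTUM, an enzyme that strips the lipid from ligands, was called higher on overlapping groups of 0, 0 and 0.469 against 1.32, 1.16 and 0.448 FPKM (adjusted p = 0.0166). Its values rest on only about 1 implied fragment in all controls and 7 in all butyrate cultures. The membrane protein APCDD1 was at 0.0451 ± 0.0782 and 0.465 ± 0.135 FPKM (adjusted p = 0.00568) and could be tested only through its butyrate values.

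Inside the cell the changes were mixed. Of 17 tested transducers and destruction complex genes, 6 (35.3%) were higher and 2 (11.8%) lower, with a median log2 fold change of 0.26, so the share of higher genes was near that of all genes. The largest were those of APC2 (1.44, limma adjusted p = 0.0106) and of the Dishevelled genes DVL2 (1.26, adjusted p = 7.31e-05) and DVL3 (-0.78, adjusted p = 0.00507), and TNKS2 followed (0.59, adjusted p = 0.0128). Among 14 nuclear factors, 5 (35.7%) were higher and 2 (14.3%) lower, again with a share of higher genes near that of all genes. The median was 0.20, and after quantile normalization 3 were higher and 3 lower. The co-repressor TLE2 rose from 0.921 ± 0.247 to 8.03 ± 0.690 FPKM (log2 fold change 3.02, adjusted p = 4.56e-06) and passed the study's thresholds. TCF7L1 (1.15, adjusted p = 0.0366) and TLE1 (0.73, adjusted p = 0.00150) rose and CTBP1 fell (-0.77, adjusted p = 0.000151).

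Of 9 tested planar cell polarity genes, 6 (66.7%) were higher and none lower, with a median log2 fold change of 0.81. PRICKLE2 (1.01, limma adjusted p = 0.000291), CELSR1 (0.90, adjusted p = 0.00560), INVS (0.83, adjusted p = 0.000460) and PRICKLE1 (0.81, adjusted p = 4.74e-05) led this list.

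Genes reported as targets of beta-catenin went both ways, 8 of 15 (53.3%) higher and 4 (26.7%) lower, with a median of 0.46, and the share of lower genes was near that of all genes. BIRC5, a survival factor of dividing cells, fell from 73.5 ± 0.544 to 3.21 ± 0.280 FPKM (log2 fold change -4.48, SE 0.09, limma adjusted p = 1.92e-08). FOSL1, an AP-1 subunit, fell from 9.86 ± 1.29 to 1.26 ± 0.225 FPKM (-2.88, adjusted p = 1.99e-06), and the cyclin CCND1 from 774.8 ± 5.81 to 315.9 ± 8.48 (-1.29, adjusted p = 4.49e-08). SOX9, a factor of epithelial progenitors, rose from 0.631 ± 0.208 to 1.70 ± 0.503 FPKM (1.30, adjusted p = 0.00617), with about 8.99 implied fragments in the controls.

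**Figure D5:**
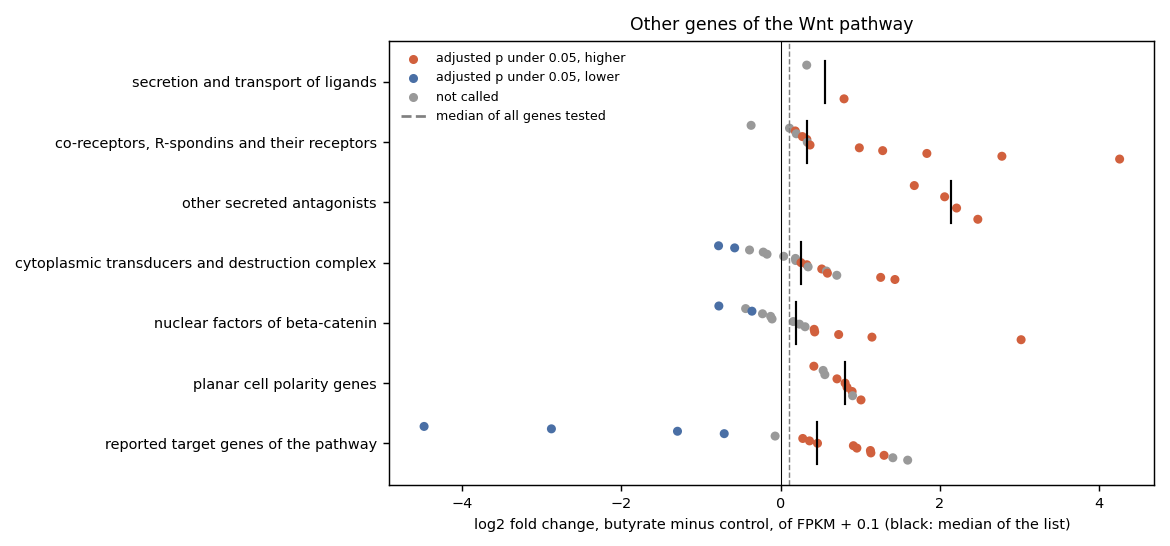
Log2 fold change of FPKM + 0.1 (horizontal axis, butyrate minus control) for each tested gene of 7 lists of the Wnt pathway, coloured by the limma call, with the list median in black and the median of all genes dashed. The list of other secreted antagonists lies furthest to the right, with a median of 2.14, and the reported targets spread from -4.48 upwards. That median covers only the 4 tested of 7 antagonists, of which APCDD1 could be tested only through its butyrate values.

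Markers of several cell types moved along with these genes, and their counts too stand against the 32.5% higher and 25.9% lower of all genes tested. Of 12 tested epithelial markers 8 were higher and 2 lower, although 1 called gene changed sign after quantile normalization, and their summed level went from 2435 to 2544 FPKM in the controls to 5093 to 5193 with butyrate. All 10 tested fibroblast markers were higher (7 after quantile normalization), with sums of 4411 to 4563 and 6464 to 6817, although COL6A3 among them could be tested only through its butyrate values, PDGFRB and FAP stayed near 0 and TCF21 was listed at 0. Of the 5 smooth muscle markers 4 were lower and 1 higher, and their sum went from 6468 to 6796 FPKM in the controls to 2849 to 3456 with butyrate. Endothelial markers summed to 1.97 to 2.16 and 6.69 to 8.41 FPKM (2 of 5 tested, both higher) and leukocyte markers to 5.12 to 7.15 and 7.23 to 9.48 (2 of 5 tested, 1 higher). Of the neuronal and glial markers, TUBB3 rose from 116.4 ± 3.89 to 256.5 ± 10.9 FPKM and S100B from 8.59 ± 1.14 to 22.4 ± 1.31 (limma adjusted p = 3.19e-07 and 1.16e-05). Their part in the changes of the Wnt genes was not tested.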

How the data were processed

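RNA of 3 control and 3 butyrate-treated REPC cultures was sequenced as paired reads. The authors trimmed reads with Trim Galore 0.4.1, aligned them with STAR, kept uniquely mapped reads and deposited, for each gene, the FPKM that Cufflinks estimated and its confidence interval (versions of the last 2 tools are not given in the sources used here; the submitters' processing notes name UMD3.1). Rows were joined by position, and 2 rows with a failed estimate were left out. Sequence names were turned into chromosomes by the RefSeq symbols on them (ARS-UCD2.0, names only), which matched for 41 of 41 genes. Coordinates are as deposited.

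As FPKM are not counts, limma 3.58.1 in R 4.3.3 was fitted with a mean-variance trend to log2(FPKM + 0.1) of the 15813 genes with a mean of at least 0.1, and p-values were adjusted over all of them. Fold changes are on that scale and understate those of low genes. Depth was implied from the half-width of the interval, taken as 2 × FPKM over the root of the fragment number, which is approximate and covers counting error only. The fit was tested on simulated data.

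Values per culture are given for each Wnt gene called or reaching a mean of 1 FPKM in a group, and, per list, for up to 4 called genes with the largest change. PORCN and the defining markers were named beside these. Of the marker lists, 2 genes are not reported here. The genes, lists and tests were chosen with earlier results of these data known. Samples with the same replicate number did not deviate together (r = 0.0228, -0.00431 and 0.00177), so numbers were not taken as pairs. Alternatives were other pseudocounts (0.01 and 1), filters and scalings, no trend, a replicate block and each culture left out.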

Additional observations from a re-analysis of the deposited data

How the results depend on the processing

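Of 436 log2 fold changes of single genes under an alternative setting, 386 kept their direction and their side of the threshold, 38 lost the call, 2 gained one and 10 turned sign. Of the 24 called genes, 17 kept the call in every setting that gave a value, and FZD3, FZD5, FZD9, FZD10, TCF7, AXIN2 and SFRP4 lost it in at least 1. Among the 17 were WNT1, WNT4, WNT6, SFRP1 and WNT2, which could be tested only through the group where they were high. These genes gave no value at a mean FPKM of at least 1, so that setting could not take their calls away. The 19 higher genes became 12 at a mean FPKM of at least 1, where 20 genes were tested, and 12 after quantile normalization, and 14 to 17 when a culture was left out. The 5 lower genes became 4 and 6 in the same settings and 5 to 6 when a culture was left out. Of the higher genes, FZD2, SFRP5 and AXIN2 passed the filter at 1 only through their butyrate values. The 1 gene up at the study's thresholds, SFRP5, became 0 with a pseudocount of 1, without a filter, with the replicate block and whenever a culture was left out (0 to 0). No gene was down in any setting. With the replicate number as a block, 18 were higher and 5 lower, and FZD3 lost its call (adjusted p = 0.0791). The samples share only a number.

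The sign turned for genes that were not called. After quantile normalization this was so for FZD8 (-0.19), LRP6 (-0.16) and WNT9A (-0.77), and after rescaling to TPM for WNT7A (0.057). With a culture left out, values ran from -0.18 to 0.069 for WNT7A, from -0.59 to 0.52 for WNT10A and from -0.13 to 0.33 for WNT9A. The sign turned without butyrate replicate 1 for WNT7A and WNT10A, without control replicate 3 for WNT10A and WNT9A, and without butyrate replicate 2 or 3 for WNT9A. The cause was not tested. Low depth limits WNT1, WNT6, SFRP4, the control levels of SFRP5, WNT4, SFRP1 and FZD10 and the butyrate level of WNT2, which rest on few implied fragments.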

Other observations

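Some of the genes lie next to each other, with no other row starting between them. WNT1 and WNT10B are 6425 bases apart on chromosome 5, and both were higher after butyrate. WNT6 and WNT10A are 7203 bases apart on chromosome 2, where WNT6 was higher and WNT10A was not called (limma log2 fold change -0.20, adjusted p = 0.821). WNT9B and WNT3 are 43548 bases apart on chromosome 19, and WNT3A and WNT9A 70461 bases on chromosome 7. Of these 4, WNT3 and WNT9A were tested but not called, and WNT9B and WNT3A were too low to be tested. LEF1 and DKK2 lie 930.1 kb apart on chromosome 6 with 7 rows starting between them, and LEF1 was higher while DKK2 was lower.

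A row named LRP5L, which was no member, had 6.85 ± 1.04 FPKM in the controls and 7.58 ± 0.983 with butyrate (SD, n = 3), with a limma log2 fold change of 0.15 and an adjusted p of 0.416.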
